A study of Saccharomyces cerevisiae with 44 samples.

Results

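The genes described here lie at the ends of the 16 nuclear chromosomes of budding yeast, Saccharomyces cerevisiae. A gene was a member when its start lay within 15000 bases of the smallest gene start, or its end within 15000 bases of the largest gene end, listed for its chromosome. This position rule took 275 of the 6664 nuclear genes, between 4 and 13 at each of the 32 chromosome ends, and left 6389 remaining genes. No expression value entered this rule, although these genes were taken up with earlier results of the same data known. Messenger RNA of strain CEN.PK122 had been sequenced through the yeast metabolic cycle, the swing between high and low oxygen use of a culture that gets glucose at a steady rate. The fast cycling culture had a dilution rate between 0.12 and 0.13 per hour and gave 20 libraries, 13 min apart. The slow cycling culture had one between 0.045 and 0.05 per hour and gave 24 libraries, 36 min apart. Both cultures grew in fermentors on the same minimal medium with 1% glucose, and each was followed over 2 cycles, of 10 time points in fast and 12 in slow. The labels name 1 culture for each condition, so every p-value below rests on how time points within a culture varied. In bulk RNA, more cells in a state and more RNA per cell cannot be told apart.

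Subtelomeres are the stretches just inside the telomeres, the repeats that cap each chromosome. In yeast they hold few essential genes and many gene families whose copies are spread over several ends, such as maltose utilisation genes, seripauperin cell wall proteins (PAU), COS membrane proteins and the helicase genes of the Y' repeats. The Sir proteins silence genes placed next to yeast telomeres and at the silent mating cassettes HML and HMR, and several subtelomeric genes are known for switching on in stress, starvation or a change of sugar. The outermost listed gene lay 52 to 2789 bases from the end of the reference sequence at left ends and 222 to 3905 bases from it at right ends. The rule took all 26 listed Y' helicase genes, all 11 listed COS genes and both genes of the silent mating cassette HML. It also took 19 PAU genes, of 30 genes found from a list of seripauperin and related cell wall proteins.

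Depth in megareads (M) was 7.6 M to 19.7 M in fast libraries and 6.45 M to 13.1 M in slow libraries. Levels are RPKM, reads per kilobase of gene scaled to library size, as the authors deposited them, and all differences are given on the scale log2(RPKM + 1), which understates changes of low genes. Of 275 members, 118 (42.9%) averaged at least 1 RPKM across all 44 libraries and were tested, against 5691 (89.1%) of the remaining genes. Because this filter drops low genes, counts over the 118 tested genes do not describe the other members.

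Most subtelomeric genes were very low. The median of their mean levels was 0.246 RPKM (quartiles 0 and 8.32) over the 275 members, against 45.3 RPKM (quartiles 19.5 and 100) over the remaining genes. Only 62 members (22.5%) reached 10 RPKM and 11 (4.0%) reached 100 RPKM, whereas 5247 (82.1%) and 1598 (25.0%) of the remaining genes did. Levels were higher further from the end, with distance counted from the outermost listed gene. The median was 0.00661 RPKM over the 103 genes within 5 kb, 0.943 RPKM over the 85 genes at 5 to 10 kb, and 4.19 RPKM over the 87 genes at 10 to 15 kb. Beyond the limit it was 22.1 RPKM at 15 to 20 kb (56 genes), 27.7 RPKM at 20 to 30 kb (157 genes), 42.2 RPKM at 30 to 50 kb (341 genes) and 46.1 RPKM further in (5835 genes).

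Repeated sequence moved with this gradient. The share of a gene's 50-base stretches that occur once in the reference genome had a median of 33.9% over members and 100% over the remaining genes. The sources used here do not give how reads with several matches were counted. Of 62 members with no unique stretch, 53 had no read in any library, so these zeros need not mean absence of RNA. Among the 88 members and 6117 remaining genes with at least 90% unique sequence, the levels still followed distance. Their median was 0.58 RPKM within 5 kb (15 genes), 7.9 RPKM at 5 to 10 kb (32 genes) and 14.8 RPKM at 10 to 15 kb (41 genes), against 34.4 RPKM at 15 to 20 kb (43 genes) and 47.3 RPKM beyond 50 kb (5609 genes). The part of read assignment in the full difference was not tested beyond this.

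**Figure D1:**
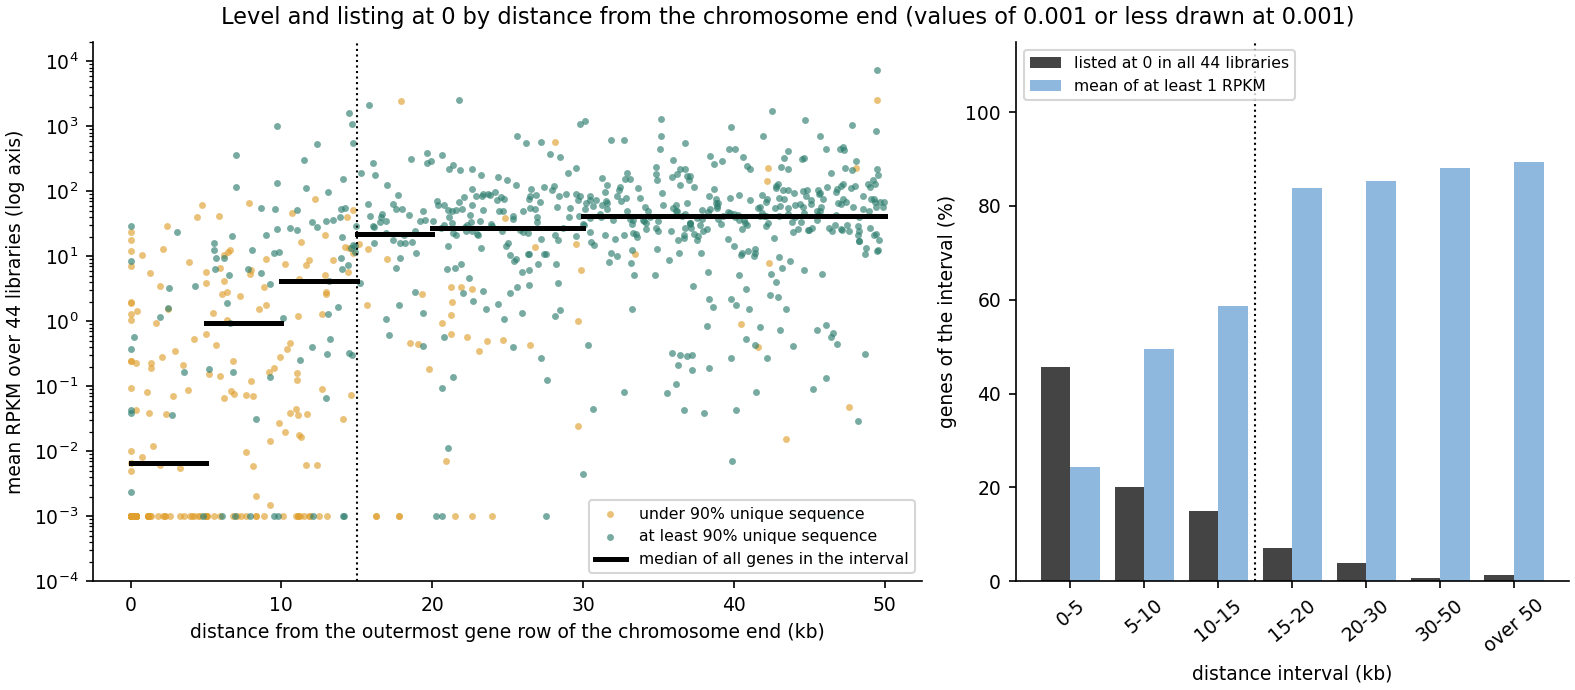
Left, mean RPKM over 44 libraries (log axis) of each nuclear gene within 50 kb of a chromosome end against its distance, coloured by unique sequence, with black bars for the median of each distance interval and a dotted line at 15 kb. Right, the percent of genes in each interval listed at 0 in all libraries (dark) and with a mean of at least 1 RPKM (light); the dark bars stand at 45.6% within 5 kb and 7.14% at 15 to 20 kb.

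In all 44 libraries, 77 members (28.0%) and 87 remaining genes (1.36%) were listed at 0. Of these 77 members, 59 had less than 10% unique sequence, 7 had between 10% and 50%, and 11 had at least 50%. The 11 sat at 5 chromosome ends and often side by side. At the left end of chromosome I they were SEO1 (sacCer3 chromosome I, 7235 to 9016), YAL066W, YAL065C and TDA8. At the right end of chromosome XIV they were PDR18, which encodes an ABC transporter (765375 to 769376), YNR071C and AIF1. ARN2, a siderophore iron transporter (chromosome VIII, 8351 to 10213), and the overlapping YHL046W-A were at 0 together. The others were AYT1 on chromosome XII and ADH7, an NADPH-dependent alcohol dehydrogenase (chromosome III, 309070 to 310155). Over 469 M reads in all, a count of 0 allows up to 3 reads, or 0.0059 RPKM for ADH7 and 0.0016 RPKM for PDR18, which covers counting error alone. RNA data do not tell a silent gene from one that the strain lacks, and the annotation is that of the reference strain.

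The few high members sat mainly in the inner part of the window. Only 8 of 32 ends held a member of at least 100 RPKM, and at 8 ends the highest member stayed below 10 RPKM. At the left end of chromosome IX, with 4 members, none reached 1 RPKM. The top 6 by level were HXK1, MSC1, YML131W, MAL11, HYR1 and MAL31, and these 6 genes took 73.2% of all reads on members. All members together held 1.12 ± 0.537% of reads of nuclear genes in fast libraries (SD, n = 20; 0.448% to 2.22%) and 1.23 ± 0.328% in slow libraries (SD, n = 24; 0.461% to 1.94%). The lowest shares were at time point 8 in fast and time point 12 in slow, and the highest at time point 13 in fast and time point 14 in slow. The 264 members below 100 RPKM kept a narrow share throughout, 0.246 ± 0.0163% in fast (n = 20) and 0.274 ± 0.0158% in slow (n = 24).

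**Figure D2:**
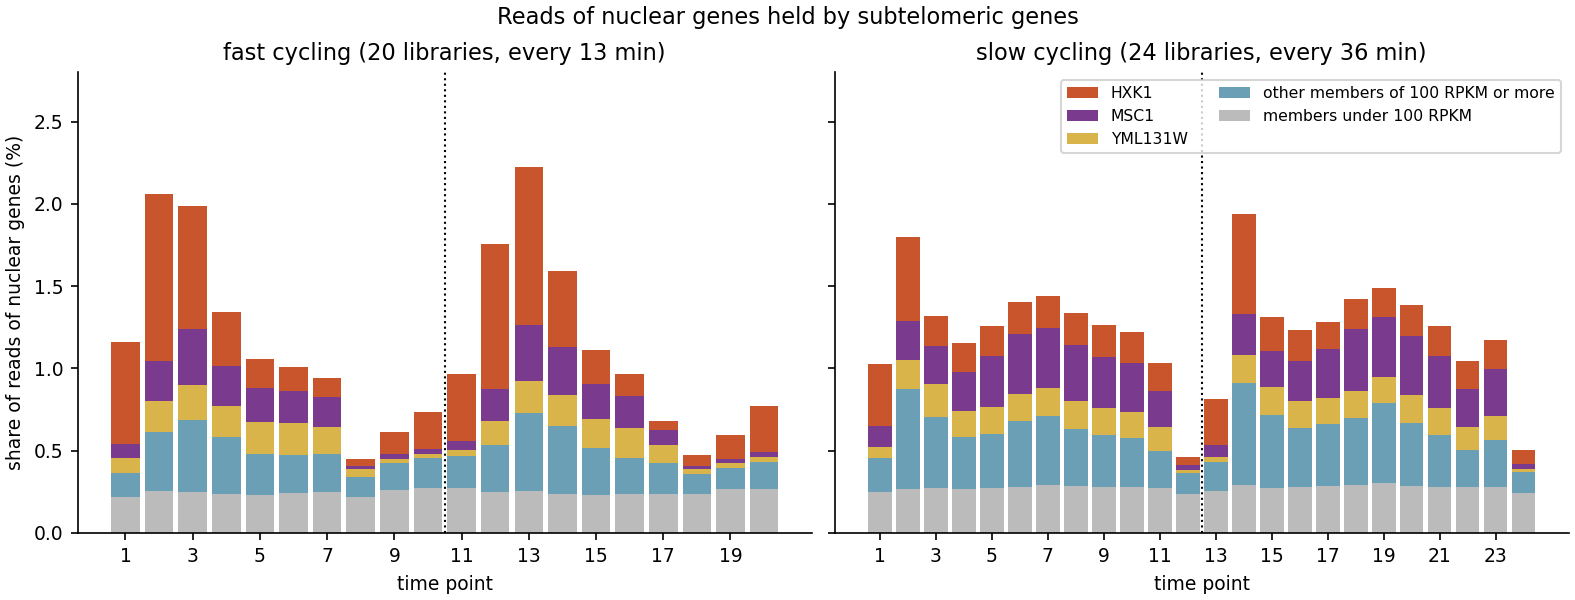
Share of reads of nuclear genes (percent) held by subtelomeric genes at each time point of the fast (left) and slow (right) culture, stacked by gene; dotted lines separate the 2 cycles. HXK1 alone held 1.01% at time point 2 of fast, while the grey share of the 264 low members stayed between 0.217% and 0.301%.

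The rank test of cycling (JTK_Cycle, Benjamini-Hochberg q under 0.05 over 5820 yeast genes) called 75 of 118 tested members in fast, 63.6%, where 74.3% of all tested genes were called. In slow it called 52 members, 44.1%, where 55.1% of all were called. In both cultures 40 members (33.9%) passed, in fast alone 35, in slow alone 12, and in neither 31. Of the 5691 tested remaining genes, 2695 (47.4%) passed in both, 1555 in fast alone, 459 in slow alone and 982 in neither. These counts do not test a difference between cultures. Level moved with these shares. Among genes of 1 to 10 RPKM, 29 of 56 members (51.8%) and 215 of 444 remaining genes (48.4%) cycled in fast, and 18 (32.1%) and 143 (32.2%) in slow. At 10 to 100 RPKM the fast shares were 68.6% of 51 members and 73.8% of 3649 remaining genes, and the slow shares 52.9% and 54.3%. All 11 members of at least 100 RPKM cycled in fast and 7 (63.6%) in slow, next to 84.0% and 64.5% of 1598 remaining genes. The size of the swing was close: among cycling genes the median profile range, highest minus lowest value of the mean of both cycles, was 1.34 in 75 members and 1.36 in 4250 remaining genes in fast, and 1.53 and 1.51 in slow (52 and 3154 genes). No test of these differences between gene groups was made.

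Many fast calls depended on the scaling. After scaling to the ERCC controls, RNAs added in equal amount to each sample, 25 members (21.2%) and 1445 remaining genes (25.4%) cycled in fast. In slow, 42 (35.6%) and 2509 (44.1%) did. The controls took 0.433% to 1.6% of reads in fast libraries and 0.679% to 1.27% in slow. Their factors in fast differed between cycles at some time points (1.02 at 3, 0.435 at 13) and less at others (0.987 at 8, 1.16 at 18). The part of this spread in the lost calls, here and below, was not tested. A limma F test of whether a time point repeated from cycle to cycle, which assumes no waveform, called 90 members (76.3%) in fast, where 84.1% of all tested genes were called, and 87 (73.7%) in slow, where 85.2% were.

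Peak times of cycling members were spread over the cycle. In fast, 24 of 75 members (32.0%) peaked at time points 2 to 4, 14 (18.7%) at 7 to 8 and 33 (44.0%) at 9, 10 or 1, while the 4250 remaining genes put 17.9%, 42.2% and 33.1% there. In slow, 17 of 52 members (32.7%) peaked at time points 5 to 8 and 18 (34.6%) at time points 12 or 1, while 10.4% and 64.6% of 3154 remaining genes did. Time point 3 was the most common peak of members in fast (17 genes) and time point 12 in slow (11 genes).

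**Figure D3:**
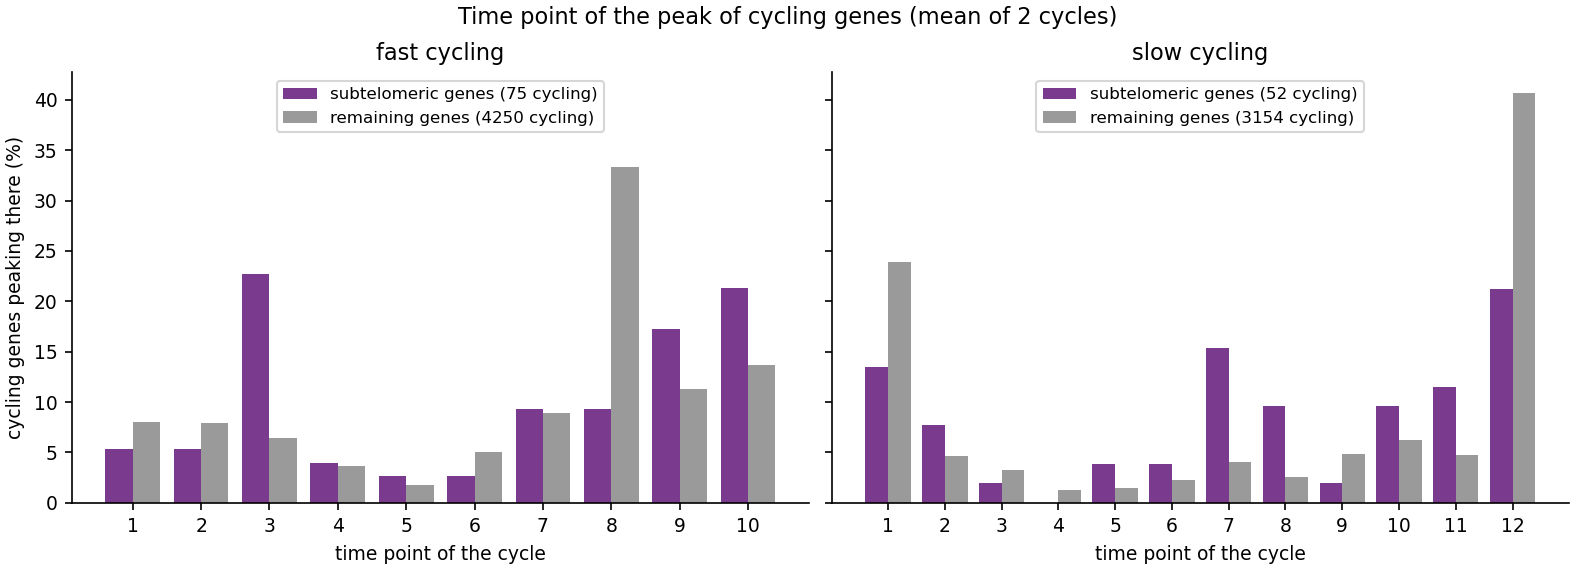
Percent of cycling genes whose mean course over both cycles peaked at each time point, for subtelomeric (purple) and remaining genes (grey), in fast (left) and slow (right). Of the members, 22.7% peaked at time point 3 in fast, and 21.2% at time point 12 in slow.

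HXK1, hexokinase isoenzyme 1, was the highest member at 1588 RPKM (YFR053C, chromosome VI, 253592 to 255049). The enzyme phosphorylates glucose and fructose. The gene is known to be repressed by glucose and lies 14467 bases from the outermost listed gene end on the right. It ranged from 214 to 5761 RPKM in fast (median 1202) and from 267 to 3411 RPKM in slow (median 1046). The highest values were at time point 2 of fast and the second-cycle time point 14 of slow, and the ranges of both cultures overlapped widely. Its mean course in fast had a peak of 5385 ± 532 RPKM and a trough of 294 ± 112 RPKM, and in slow a peak of 3151 ± 367 RPKM and a trough of 384 ± 166 RPKM (SD of 2 cycles). Its cycling q by JTK_Cycle was 1.16e-06 in fast and 1.0 in slow, whereas the limma F test of repeats gave an adjusted p of 2.99e-06 in fast and 5.75e-07 in slow. In slow the course was a plateau around the median with 1 short burst and 1 short dip per cycle. Another listed gene, YFR052C-A, overlaps it by 143 bases on the same strand.

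MAL11, an alpha-glucoside transporter (YGR289C, chromosome VII, 1073963 to 1075813), ranged from 93.1 to 1249 RPKM in fast (median 401) and from 98.4 to 1307 RPKM in slow (median 623). MAL31, the maltose transporter of the MAL3 locus (YBR298C, chromosome II, 802631 to 804475), ranged from 109 to 571 RPKM in fast and 137 to 1054 RPKM in slow. The culture medium lists glucose and yeast extract, and no maltose. Both transporters peaked at time point 3 of fast and time point 2 of slow, at different chromosome ends. The profile range of MAL11 was 3.51 in fast and 3.64 in slow, and that of MAL31 was 2.15 and 2.83. MAL12 and MAL32, the maltase genes of both loci, followed the same course, with profile ranges of 2.97 and 2.30 in fast and 3.79 and 3.50 in slow. Their proteins are 99.7% identical and only 16.4% and 15.9% of their 50-base stretches are unique, so the split of reads between them (means of 76.2 and 40.8 RPKM) is uncertain; MAL11 and MAL31 are fully unique. MAL33, the activator gene of the MAL3 locus, did not share this timing: it peaked at time point 9 of fast and 12 of slow, at 82.8 ± 13.0 and 80.0 ± 6.83 RPKM (SD of 2 cycles). Of the 7 sugar-use members, 6 were tested, 5 cycled in fast and 5 in slow; of 6 tested list genes elsewhere, 6 and 3 did, where 74.3% of all tested genes cycled in fast and 55.1% in slow. With a linear trend removed, the slow calls of MAL11, MAL12 and MAL32 were lost (q of 0.0744, 0.143 and 0.108 by JTK_Cycle). The 250 bases from 350 to 101 before the start codon of MAL12 and MAL32 are shown because these copies at different ends moved together; 245 of 250 positions are identical and capitals mark the 5 that differ (sacCer3, RefSeq R64 genome, plus strand, chrVII:1076249-1076498 and chrII:805001-805250).
MAL12: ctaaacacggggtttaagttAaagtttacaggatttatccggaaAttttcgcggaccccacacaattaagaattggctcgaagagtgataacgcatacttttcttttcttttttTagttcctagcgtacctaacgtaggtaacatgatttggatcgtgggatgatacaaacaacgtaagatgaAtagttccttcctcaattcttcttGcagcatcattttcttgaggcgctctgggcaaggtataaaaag
MAL32: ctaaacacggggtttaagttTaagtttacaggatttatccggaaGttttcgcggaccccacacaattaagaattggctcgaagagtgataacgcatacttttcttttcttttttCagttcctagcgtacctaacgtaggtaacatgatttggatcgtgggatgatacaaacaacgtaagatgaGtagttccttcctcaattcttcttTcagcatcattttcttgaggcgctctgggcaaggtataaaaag

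YML131W (chromosome XIII, 10198 to 11295) averaged 1000 RPKM and ranged from 184 to 1624 RPKM in fast and from 132 to 1506 RPKM in slow. Its profile range was 3.01 in fast and 3.22 in slow, with peaks at time point 3 of both. MSC1, named for a role in meiotic sister chromatid recombination (YML128C, chromosome XIII, 15135 to 16676), ranged from 86.9 to 1857 RPKM in fast (median 981) and from 150 to 1964 RPKM in slow (median 1394). It was lowest at time points 8 to 10 of fast and at time point 12 of slow. Its level was 813 ± 599 RPKM in fast (n = 20) and 1348 ± 536 RPKM in slow (n = 24), a difference of -1.08 ± 0.37 (SE, adjusted p = 0.0183 by limma). GTT1, a glutathione S-transferase of the endoplasmic reticulum (YIR038C, chromosome IX, 423809 to 424513), had 174 ± 60.8 RPKM in fast and 415 ± 167 RPKM in slow, a difference of -1.19 ± 0.20 (SE, adjusted p = 5.06e-06 by limma). It ranged from 77.8 to 264 RPKM in fast and from 108 to 668 RPKM in slow. HYR1 beside it, a glutathione peroxidase-type sensor of hydrogen peroxide, had 424 ± 131 RPKM in fast and 632 ± 189 RPKM in slow. SNO4, of the Hsp31 chaperone and glyoxalase family (YMR322C, chromosome XIII, 918366 to 919079), ranged from 6.74 to 80.9 RPKM in fast and from 11.3 to 112 RPKM in slow, and differed by -1.10 ± 0.32 (SE, adjusted p = 0.00504 by limma). Of its near-identical relatives HSP33 and HSP32, HSP33 averaged 7.41 RPKM and cycled with it, and HSP32 had reads in 2 libraries; SNO4 has 22.6% unique sequence, so the split is uncertain. ERR3, an enolase-related gene next to SNO4, ranged from 2.68 to 37.4 RPKM in fast and 6.51 to 68.9 RPKM in slow, while its copies ERR1 and ERR2 had 0.00148 and 0.0145 RPKM. ERR3 has 35.9% unique sequence and ERR1 and ERR2 have 0%, so the split of reads among these copies is uncertain. MSC1, SNO4, HSP33, ERR3 and GTT1 had their trough at time point 12 of slow, and all but ERR3 at time point 8 of fast.

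HXK1, MSC1, GTT1 and SNO4 hold the stress response element AGGGG, the letters bound by Msn2 and Msn4, between 350 and 101 bases before their start codons. These genes are shown because a match, in capitals, was found on either strand; the letters cannot overlap those of the E-box searched as well. Of 6662 such windows of all nuclear genes, 1307 (19.6%) hold the motif, as do 50 of 273 (18.3%) of the members and 7 of 36 (19.4%) of the members named here, so members as a whole had about the background share. Windows are from the R64 genome on the minus strand (chrVI:255150-255399, chrXIII:16777-17026, chrIX:424614-424863 and chrXIII:919180-919429), and a match describes letters, not binding.
HXK1: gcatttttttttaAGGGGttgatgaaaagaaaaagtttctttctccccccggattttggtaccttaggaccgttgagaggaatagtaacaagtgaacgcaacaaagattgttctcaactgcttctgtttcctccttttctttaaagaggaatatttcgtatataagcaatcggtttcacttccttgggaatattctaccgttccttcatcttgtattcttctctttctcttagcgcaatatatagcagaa
MSC1: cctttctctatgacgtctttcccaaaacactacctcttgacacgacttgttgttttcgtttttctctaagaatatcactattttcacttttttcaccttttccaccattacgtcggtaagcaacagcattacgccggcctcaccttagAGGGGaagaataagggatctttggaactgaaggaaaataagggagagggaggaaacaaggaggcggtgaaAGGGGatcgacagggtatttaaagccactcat
GTT1: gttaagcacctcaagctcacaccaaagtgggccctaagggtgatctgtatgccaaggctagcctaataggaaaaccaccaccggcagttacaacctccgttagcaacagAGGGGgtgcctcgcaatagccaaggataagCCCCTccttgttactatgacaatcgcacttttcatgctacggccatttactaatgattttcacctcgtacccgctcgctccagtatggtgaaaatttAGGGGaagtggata
SNO4: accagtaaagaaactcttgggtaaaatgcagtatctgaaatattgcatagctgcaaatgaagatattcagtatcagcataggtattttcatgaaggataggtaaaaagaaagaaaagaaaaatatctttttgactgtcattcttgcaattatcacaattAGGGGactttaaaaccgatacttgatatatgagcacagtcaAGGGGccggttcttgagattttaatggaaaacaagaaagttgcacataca

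The SNZ genes of vitamin B6 synthesis peaked where the maltose transporters were below their medians. SNZ2 and SNZ3 encode the synthase subunit of pyridoxine (vitamin B6) synthesis and lie at the left ends of chromosomes XIV and VI, each beside its partner SNO2 or SNO3, the glutaminase subunit, and a THI gene of thiamine precursor synthesis. SNZ2 (YNL333W, 13267 to 14163) ranged from 3.94 to 113 RPKM in fast (median 16.8) and from 5.23 to 41.3 RPKM in slow (median 8.91). In fast it peaked at time point 10, at 101 ± 8.95 RPKM, with a trough of 4.67 ± 0.421 RPKM at time point 4, and in slow it peaked at time point 1, at 39.3 ± 2.76 RPKM (SD of 2 cycles). SNZ3 peaked at the same time points. Both passed the cycling test in both cultures. SNO2 and SNO3 cycled in fast, with profile ranges of 2.84 and 2.91 and peaks at time point 9. The SNZ proteins are 99.7% identical and 22.9% of each gene is unique, so how alike the copies really are cannot be told from these values. THI12, THI13 and THI5 were low, at means of 13.2, 5.78 and 5.16 RPKM, and in slow the mean courses of all were lowest at time point 12, that of THI12 at 2.68 ± 0.117 RPKM (SD of 2 cycles). All 7 tested members of this list cycled in fast and 5 in slow, while of 9 tested list genes elsewhere 8 and 7 did, next to 74.3% of all tested genes in fast and 55.1% in slow. Unique sequence was 13.5% in SNO2 and SNO3, 29.4% in THI12, 40% in THI13 and 15% in THI5. The split of reads is uncertain for these genes too, and the 7 calls are not 7 independent results. In the 180 bases from 280 to 101 before the start codon, SNZ2 and SNZ3 differ at 1 position, in capitals (R64 genome, plus strand, chrXIV:12987-13166 and chrVI:11083-11262).
SNZ2: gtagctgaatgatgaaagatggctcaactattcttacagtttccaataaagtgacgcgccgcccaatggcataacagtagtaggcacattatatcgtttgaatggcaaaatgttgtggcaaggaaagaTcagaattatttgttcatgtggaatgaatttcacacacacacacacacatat
SNZ3: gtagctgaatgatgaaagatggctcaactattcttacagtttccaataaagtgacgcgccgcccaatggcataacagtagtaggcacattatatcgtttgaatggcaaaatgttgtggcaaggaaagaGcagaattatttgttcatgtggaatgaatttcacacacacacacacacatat

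PHO89, a sodium and phosphate cotransporter of the plasma membrane (YBR296C, chromosome II, 796798 to 798522), had the largest level difference of any tested member. It ranged from 7.78 to 33.8 RPKM in fast (median 16.1) and from 24.6 to 68.2 RPKM in slow (median 51.0), so the ranges overlapped only in their tails. Its mean was 15.8 ± 6.15 RPKM in fast (n = 20) and 51.4 ± 12.3 RPKM in slow (n = 24), a difference of -1.68 ± 0.13 (SE, adjusted p = 4.56e-14 by limma). The acid phosphatase genes PHO11 and PHO12, targets of the same phosphate pathway, stayed at 1.56 RPKM each with no cycling call in either culture, but are 99.6% identical in protein. The window of PHO89 holds the E-box CACGTG, in capitals, which contains the core bound by Pho4; 240 of 6662 windows (3.6%) and 14 of 273 member windows (5.13%) hold it (R64 genome, minus strand, chrII:798623-798872).
PHO89: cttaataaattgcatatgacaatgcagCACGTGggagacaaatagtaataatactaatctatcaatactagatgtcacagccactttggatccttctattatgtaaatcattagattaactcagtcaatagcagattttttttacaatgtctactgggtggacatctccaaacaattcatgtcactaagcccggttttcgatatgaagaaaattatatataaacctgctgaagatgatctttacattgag

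Between cultures, limma called 3 of 118 tested members at least 2-fold higher in fast, 2.54%, where 1.87% of all tested genes were called. It called 9 members at least 2-fold lower in fast, 7.63%, where 2.35% of all were. At any size, 14 members (11.9%) were higher in fast, where 17.9% of all tested genes were, and 36 (30.5%) were lower, where 20.4% were. The median difference was -0.10 over the tested members and 0.00 over the remaining genes, and 75 members (63.6%) and 2828 remaining genes (49.7%) lay below 0. Scaling to the ERCC controls raised the median of all genes by 0.20 and that of members to 0.07. It then called 7 members at least 2-fold higher (5.93%), where 2.92% of all tested genes were, and 3 lower (2.54%), where 1.68% of all were; MSC1, SNO4, ERR3, GTT1, MCH2 and COS4 kept their sign but no longer passed 2-fold. The 3 genes higher in fast were YAL067W-A, YCR102C and YBL108W. YCR102C (chromosome III, 304361 to 305467) had 66.2 ± 37.9 RPKM in fast and 29.7 ± 27.3 RPKM in slow, a difference of 1.21 ± 0.23 (SE, adjusted p = 5.83e-05 by limma), and ranged from 28.3 to 137 RPKM in fast and from 11.2 to 116 RPKM in slow. Its highest values in slow were at time points 12 and 1 of the cycle. The file lists YBL108W (8.08 ± 4.42 RPKM in fast, 3.09 ± 2.13 RPKM in slow) and YBL109W (6.73 ± 2.33 RPKM in fast, 17.3 ± 4.08 RPKM in slow) near each other at the left end of chromosome II, and they differed in opposite directions by 1.19 ± 0.22 and -1.27 ± 0.12 (SE). The other lower genes were YOL163W, ERR3, MCH2 and COS4, besides PHO89, GTT1, MSC1 and SNO4. The level test had no term for the phase of the cycle. For cycling genes such as MSC1, SNO4 and ERR3, the part of differing numbers of time points near the trough was not tested.

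**Figure D4:**
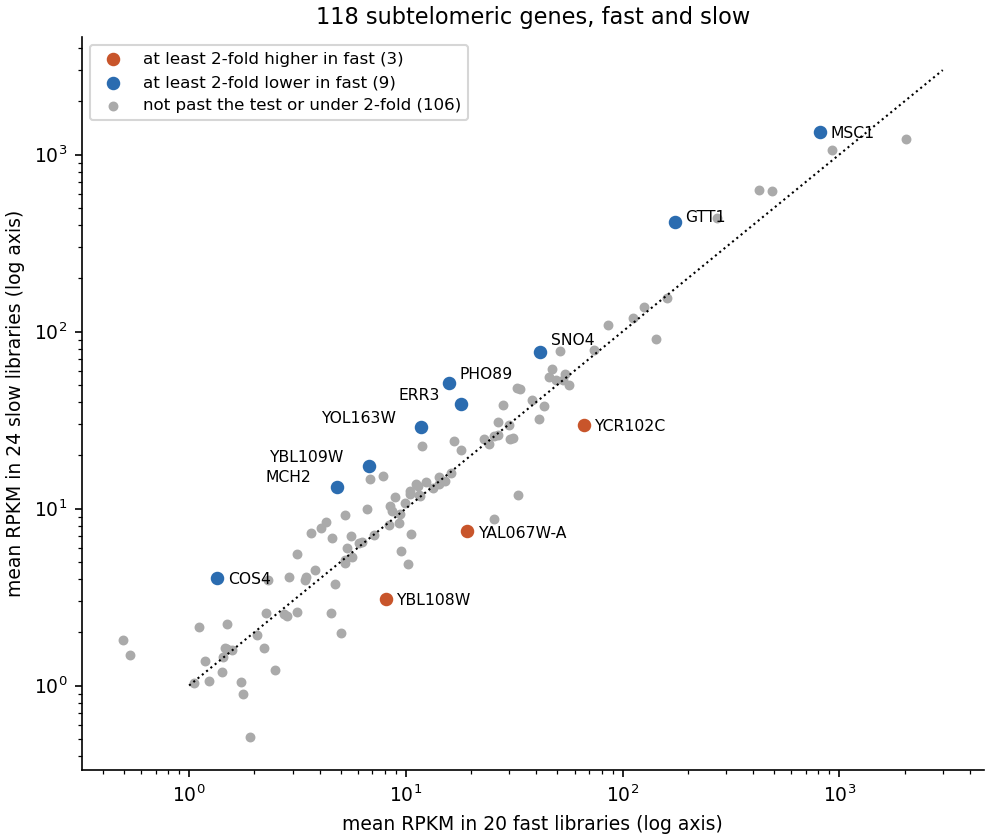
Mean RPKM of the 118 tested subtelomeric genes in 20 fast libraries (x) and 24 slow libraries (y), both on log axes, with a dotted line of equal level. Named points passed q under 0.05 by limma with at least 2-fold: 3 higher in fast (orange) and 9 lower in fast (blue).

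The COS genes, which encode membrane proteins that act in sorting to the vacuole, were mostly lower in fast. Of 11 members, 8 were tested. By limma at any size, 7 of the 8 were lower in fast, where 20.4% of all tested genes were. Their median difference was -0.81. After ERCC scaling it was -0.62, with 6 called lower and 1 of the 8 positive. COS6, the highest, had 51.2 ± 11.9 RPKM in fast and 78.0 ± 9.30 RPKM in slow. COS4 had 1.35 ± 0.527 RPKM in fast and 4.05 ± 1.49 RPKM in slow, a difference of -1.07 ± 0.12 (SE, adjusted p = 7.76e-10 by limma), and was the only COS gene past 2-fold. COS1, COS5, COS7 and COS8 differed by -0.79 to -0.87, and COS8 has 82.6% unique sequence. The tested COS genes with more unique sequence differed less: COS9 (99.1% unique) by -0.24 ± 0.06, with 18.0 ± 2.58 RPKM in fast and 21.4 ± 2.51 RPKM in slow, and COS10 (100% unique) by -0.01 ± 0.11, which did not pass. The family as a whole shares much sequence (median 33.4% unique over the 11 members), and the part of shared reads in its median difference was not tested.

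The other repeat families were mostly below the filter. Of 19 PAU members, 7 were at 0 and only PAU19 was tested; it cycled in both cultures, with a peak of 21.3 ± 1.69 RPKM and a trough of 1.89 ± 0.829 RPKM in fast (SD of 2 cycles). The list they came from also holds related cell wall protein genes. Outside the window, 9 of its 11 genes were tested, and their median was 12.3 RPKM against 0.0119 RPKM over members. The PAU members had a median of only 22% unique sequence, and the part of read assignment in this difference was not tested. The 26 Y' helicase genes had a median of 0% unique sequence. Of these, 16 were at 0 and 3 were tested. YBL113C was the highest at 23.5 RPKM, with 18.5% unique sequence and an overlap of 77 bases with YBL112C. HML, the silent mating cassette, was at 0 in both its members, HMLALPHA1 and HMLALPHA2, which have identical copies at the active locus. The 6 hexose transporter and polyol dehydrogenase members had a median of 5.92% unique sequence. Of them, 1 reached 1 RPKM, while 13 of 17 list genes elsewhere did. It was YNR073C, which RefSeq names MAN2, a mannitol dehydrogenase gene, which ranged from 0.679 to 4.58 RPKM in fast (median 1.99) and from 0.833 to 3.63 RPKM in slow (median 2.76). It cycled in fast, with a profile range of 1.46, and not in slow (0.98), and the fast call was lost after ERCC scaling. Its protein is identical to that of YEL070W and 41.5% of it is unique, so the split of reads is uncertain. HXT17 beside it had 0.319 ± 0.480 RPKM in fast and 0.0405 ± 0.0632 RPKM in slow. FLO10, the only flocculin member, averaged 8.74 RPKM.

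Metal and alcohol genes gave single examples. FET4, a low-affinity iron transporter (YMR319C, chromosome XIII, 912880 to 914538), ranged from 0.664 to 9.33 RPKM in fast and from 1.80 to 15.0 RPKM in slow, and cycled in both, with peaks of 8.21 ± 1.58 RPKM at time point 8 and 13.8 ± 1.75 RPKM at time point 12 (SD of 2 cycles). These were the time points at which MSC1 and HXK1 were lowest. Its neighbour ADH6, an NADPH-dependent alcohol dehydrogenase, peaked at the same time points, at 271 ± 51.5 RPKM in fast and 249 ± 33.1 RPKM in slow. FRE2, a ferric reductase, had 5.66 ± 1.38 RPKM in fast and 5.33 ± 0.755 RPKM in slow, and cycled in fast alone; its cosine range was larger in fast by 0.54 ± 0.15 (SE), but the fast call was lost after ERCC scaling. ARR1, the regulator of arsenic resistance genes, passed in neither culture, at 54.3 ± 4.98 RPKM in fast and 57.8 ± 5.51 RPKM in slow. MCH2, related to monocarboxylate permeases (YKL221W), ranged from 2.62 to 7.95 RPKM in fast and from 4.16 to 23.9 RPKM in slow, a difference of -1.18 ± 0.17 (SE, adjusted p = 3.58e-07 by limma). The aryl-alcohol dehydrogenase genes AAD6 and AAD16 averaged 15.2 ± 3.05 and 14.2 ± 3.66 RPKM in fast (SD, n = 20) and 14.4 ± 2.18 and 13.7 ± 2.53 RPKM in slow (SD, n = 24). Both cycled in fast, with profile ranges of 0.71 and 0.88, and neither passed in slow (q of 0.0266 and 0.007 in fast and 1 and 0.188 in slow by JTK_Cycle).

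**Figure D5:**
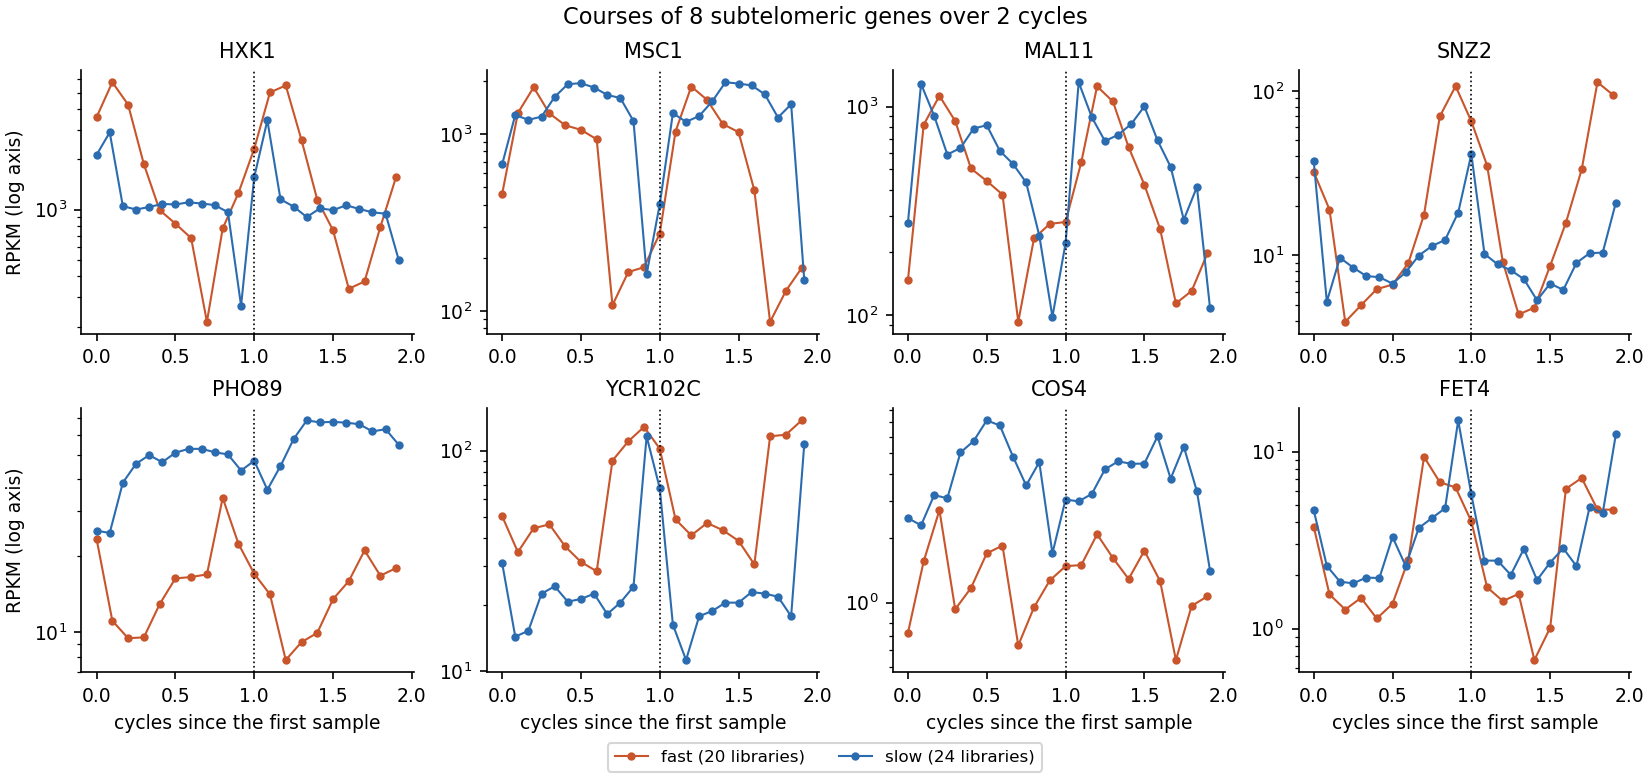
RPKM (log axis) of 8 subtelomeric genes against cycles since the first sample, in fast (orange, 20 libraries) and slow (blue, 24 libraries); each point is 1 library and the dotted line marks the start of the second cycle. The mean courses of HXK1, MSC1 and MAL11 were lowest where that of FET4 peaked, at time point 8 of the cycle in fast and 12 in slow, and PHO89 and COS4 lay mostly higher in slow.

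Swings were compared through the range of a cosine fitted at the nominal period. Of 87 members that cycled in at least 1 culture, 24 (27.6%) had a larger cosine range in fast at q under 0.05 (z test), where 41.4% of 4796 such genes were called, and 2 (2.3%) had a larger one in slow, where 3.73% were. The difference was positive in 68 of the 87 (78.2%), where 83.7% of all 4796 were positive. Its median was 0.36 over members and 0.41 over all 4796. A cosine understates courses with a short burst. By profile range only 36 of the 87 were larger in fast, and the median difference over members was -0.10, opposite in sign to that of the cosine range. The direction of the comparison thus depended on the measure. The share over all 4796 genes was not computed for profile range, so these values do not set members apart. HXK1 had a cosine range of 3.68 ± 0.26 in fast and 0.61 ± 0.41 in slow (SE), but profile ranges of 4.24 and 3.10. SNZ2 was larger by either measure, with cosine ranges of 4.08 ± 0.34 in fast and 1.44 ± 0.30 in slow and profile ranges of 4.17 and 2.47. MCH2 and COS4 were larger in slow, MCH2 with cosine ranges of 0.74 ± 0.14 in fast and 1.65 ± 0.23 in slow.

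The 15000-base limit was counted from the outermost listed gene of each end. The members nearest inside were PCA1, a cadmium-exporting ATPase (14980 bases, 28.8 RPKM), YPR196W (14913 bases, 14.6 RPKM) and YCR099C (14889 bases, 11.7 RPKM). The genes nearest outside were YPL277C (15125 bases, 15.3 RPKM), YHL042W (15222 bases, 3.9 RPKM) and LYS1, an enzyme of lysine synthesis (15247 bases, 190 RPKM).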

How the data were processed

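The authors deposited 1 table of RPKM values. Per the file headers, HOMER counted sense-strand reads over gene bodies of build sacCer3. The submitters' processing notes also name FastQC 0.10.1 and TopHat2 2.0.10, and say nothing of reads that match several places. Of 5989 nuclear genes found in the reference table, 5981 (99.87%) had the same coordinates. Gene lengths, in bases, are as deposited. The values of low genes were whole multiples of 1 read within 0.1, which gave depth and read counts. Per the labels' protocols, RNA was extracted in groups drawn at random from the 44 samples, without a label for which sample belonged to which.

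Genes averaging at least 1 RPKM (5820 of 6692 yeast rows, mitochondrial rows included) were tested. The cycling test was JTK_Cycle, re-implemented with an exact null, periods of 9, 10 and 11 intervals in fast and 11, 12 and 13 in slow, and Benjamini-Hochberg adjustment (q under 0.05). For levels, log2(RPKM + 1) was fitted with limma 3.58.1 under R 4.3.3; a call needed q under 0.05, and 2-fold calls a difference of that size. Cosine ranges at the nominal period were compared with a z test. Unique sequence is the percent of a gene's 50-base stretches found once on either strand of the R64 genome; protein copies came from BLAST 2.17.0, as identical residues over the longer protein, with 90% or more called near-identical. The tests were checked on simulated independent counts with flat or cosine courses. That check does not cover courses with short bursts or dips, or time points that depend on each other. Steps outside limma ran in Python 3.11.15 (pandas 2.3.3, numpy 2.4.6, scipy 1.17.1, and matplotlib 3.10.9 for plots).

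The members and gene lists were chosen with earlier results of these data known. Named members were, per culture, the 6 cycling ones with the largest profile range whose cycles correlated at 0.5 or more; the 6 largest level differences each way past the test; the 6 highest; the highest and most variable of each family; the 3 nearest the limit on each side; and the 3 largest range differences each way. Lists were matched by the file's names and current RefSeq symbols. Partner copies and neighbours of these, and genes at 0 with unique sequence, were named after their values were seen. Alternatives were other scalings, filters, pseudocounts, tests, cycles and distance limits.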

Additional observations from a re-analysis of the deposited data

Results flagged for a closer look

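These members differed between the cultures in cosine range (fast minus slow on the log2 scale, z test with q under 0.05 over 4796 genes). HXK1 differed by 3.07 ± 0.48 (SE), SNZ2 by 2.65 ± 0.45, SNZ3 by 2.47 ± 0.43, MSC1 by 1.84 ± 0.58, SNO4 by 1.50 ± 0.51, YML131W by 1.48 ± 0.59 and PAU19 by 1.31 ± 0.47. Smaller differences were those of PCA1 (0.69), YBL113C (0.65), YNR073C (0.64), FRE2 (0.54), COS6 (0.41) and YPR196W (0.35). The range was larger in slow for MCH2 (-0.91 ± 0.27) and COS4 (-0.53 ± 0.23). By profile range, which follows short bursts, SNO4 (3.15 in fast, 3.16 in slow), YML131W (3.01 and 3.22) and YBL113C (1.28 and 1.39) did not have the larger value in fast. After ERCC scaling HXK1, SNZ2, SNZ3, MSC1, SNO4, PAU19 and PCA1 stayed past the threshold, and YPR196W changed sign to -0.17.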

How the results depend on the processing

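Fast cycling calls of members (75 of 118, 63.6%) fell to 25 (21.2%) after ERCC scaling, where 25.4% of remaining genes were called. Other settings changed the number of genes counted. At a mean of at least 10 RPKM, 46 of 62 members (74.2%) and 76.9% of remaining genes were called. With at least 90% unique sequence, 40 of 60 members (66.7%) and 74.7% of remaining genes were. Calls were 48 without near-identical copies, 32 within 10000 bases and 199 within 30000 bases. Slow cycling calls (52 of 118, 44.1%) were 87 (73.7%) by the repeat test, where 85.6% of remaining genes were called. By an F test of the fitted cosine they were 68 (57.6%), where 56.9% of remaining genes were called, so members were not below the rest. The same test in fast called 84 members (71.2%) and 82.1% of remaining genes. With unique sequence, 30 of 60 members (50%) and 55.5% of remaining genes were called in slow. Slow calls were 34 without copies, 23 within 10000 and 154 within 30000 bases. Genes higher in fast (3) were 5 with a pseudocount of 0.1, 1 with 5, 7 after ERCC scaling, 5 in the first cycle, 9 within 30000 bases, 1 without copies and 0 by limma with unique sequence (0 at an unadjusted p under 0.05 and 2-fold; 6 at any size). Genes lower in fast (9) were 4 with a pseudocount of 5, 3 after ERCC scaling, 14 within 30000 bases and 5 without copies. Larger cosine ranges in fast (24) were 7 after ERCC scaling, 9 within 10000 and 83 within 30000 bases. Larger ranges in slow (2) were 1 with a pseudocount of 0.1, 4 with 5, 14 within 30000 bases and 0 by the z test after ERCC scaling (0 at an unadjusted p under 0.05). The median level of 0.246 RPKM was 0.0909 within 10000 bases, 4.19 within 30000 and 3.82 without copies. The share of reads was 0.285% in fast and 0.364% in slow within 10000 bases, and 4.30% and 4.09% within 30000. The cause of these changes was not tested. Another distance limit takes another number of genes, and genes at other distances. Counts for other limits or without copies stand without a share of tested genes, so they do not tell a higher rate of calls from a lower one. Of tested genes, 60% of 25 within 5 kb, 40.5% of 42 at 5 to 10 kb and 84.3% of 51 at 10 to 15 kb cycled in fast. In slow, 36%, 33.3% and 56.9% did. The restriction to unique sequence was chosen after seeing the data.

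Among named genes, 415 of 476 alternative cycling results and 253 of 273 alternative level results kept their side of the threshold, and none changed the sign of a called level. No paired analysis was possible because the numbers shared by the cultures are time points of separate cultures taken at different intervals. Depth limits the low members, whose levels below 1 RPKM rest on few reads.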
